A study of Mus musculus with 6 samples.

Results

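Polyamines (putrescine, spermidine and spermine) are small positively charged metabolites that bind RNA and DNA and are made in large amounts by dividing cells. Ornithine decarboxylase (Odc1) makes putrescine, Amd1 makes the aminopropyl donor from which Srm and Sms build spermidine and spermine, and Sat1 and Smox break these down. The pathway is restrained by antizymes (Oaz1, Oaz2), which send ornithine decarboxylase to the proteasome, and antizyme inhibitor (Azin1) counteracts them; Dhps uses spermidine to begin the hypusine modification of the translation factor eIF5A. These 10 genes were chosen by symbol from the pathway, and each matched 1 NCBI gene identifier among the 18446 genes of the deposited table. All 10 averaged at least 1 FPKM over the libraries, as did 10347 genes in all.

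RNA was sequenced from naive CD4+ T cells, helper T cells that have not met antigen, sorted as CD44-low and CD62L-high from spleen and lymph nodes of C57BL/6 mice aged 6 to 8 weeks. The libraries labelled Zak-deficient were Zak-/- by genotype at 0, 6 and 48 h of culture with anti-CD3 and anti-CD28, antibodies that trigger the antigen receptor together with a costimulatory receptor. The others were wild type (WT) at the same times. The protocol text also speaks of a conditional deficiency in T cells, and names no Cre driver, mouse number or pooling. Each of the 6 groups had 1 library, so no difference below has a replicate check and none was tested. Values are FPKM, fragments scaled for transcript length and for the size of the library, which are per length and can be set side by side between genes. Changes are differences of log2(FPKM+1), which understates the change of genes with low values, and 2-fold or more on that scale is the size rule used throughout.

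Map3k20, which encodes Zak, stood at 0.10, 0.10 and 1.61 FPKM at 0, 6 and 48 h in the libraries labelled Zak-deficient, against 0.17, 0.19 and 1.35 FPKM in WT. The level did not separate the labels at 48 h, so each direction between genotypes rests on the label. The libraries summed to between 496045 and 546113 FPKM. Their read depth is not given in the files; among 124 olfactory receptor genes of 900 to 1000 bases the value listed most often above 0 is taken as about 1 fragment. It was 0.07 FPKM, but 0.06 for WT at 48 h, and rested on 6 to 25 genes a library. Markers of CD4+ T cells were high in every library: the 8 listed genes summed to between 2358 and 2756 FPKM in the libraries labelled Zak-deficient and between 2288 and 2788 in WT. Markers of B cells summed to 6.87, 5.07 and 6.94 FPKM at 0, 6 and 48 h in the libraries labelled Zak-deficient and to 3.22, 4.55 and 5.19 in WT, with 0 of 4 listed at 0. Markers of myeloid cells summed to between 5.75 and 10.55 FPKM in the libraries labelled Zak-deficient and between 4.26 and 11.97 in WT, where 4 of 7 were listed at 0 at 48 h. The 6 activation markers summed to 42.6, 819 and 571 FPKM at 0, 6 and 48 h in the libraries labelled Zak-deficient, and to 45.3, 831 and 622 in WT. Markers of naive cells summed to 2235, 1212 and 409 FPKM in the libraries labelled Zak-deficient and to 2231, 1290 and 422 in WT. Both CD8 genes together reached at most 12.78 FPKM, the 3 NK cell genes at most 0.60, and the 2 erythroid genes in the table, of 4 listed, at most 1.52. The part of other cells in the results below was not tested. Among the checks of activation, Cd69 stood at 12.01, 225 and 73.1 FPKM in the libraries labelled Zak-deficient and at 17.1, 278 and 83.8 in WT. Il2ra stood at 14.2, 99.96 and 95.4 FPKM in the libraries labelled Zak-deficient and at 10.2, 99.65 and 89.6 in WT. The proliferation gene Mki67 stood at 0.80, 0.33 and 75.2 FPKM in the libraries labelled Zak-deficient and at 0.51, 0.28 and 92.6 in WT. In bulk RNA, fewer expressing cells and less RNA per cell cannot be told apart.

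The antizyme messages carry a programmed frameshift: ribosomes must skip a base at an internal stop codon, more often when polyamines are plentiful, to read the rest of the protein. RNA levels therefore do not give antizyme protein. The site is shown for both antizymes as GENCODE M21 transcripts hold it (GRCm38, plus strand), with the stop codon in capitals, at chr10:80828280-80828321 for Oaz1 and chr9:65686257-65686298 for Oaz2.
Oaz1: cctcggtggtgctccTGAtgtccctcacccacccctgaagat
Oaz2: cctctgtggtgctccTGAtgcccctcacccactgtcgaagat
Of the 42 bases shown, 36 are identical between Oaz1 and Oaz2. Among the coding transcript models, 3 of 6 for Oaz1 and 2 of 4 for Oaz2 are written with 1 base of this site skipped. The annotated reading frame thus runs through it in those models. The stop codon stands at the site in 1 of 6 coding models for Oaz1 and in 0 of 4 for Oaz2. The Oaz2 window shown therefore comes from a model not labelled as coding.

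CACGTG, the E-box that Myc and its partner Max are known to bind, was looked for in RefSeq promoters (GRCm38.p6, 250 bases before to 50 after the start); it reads the same on both strands. It was present in 7.15% of 32851 promoters and in 10.3% of those of genes averaging at least 1 FPKM. Promoters were matched for 8 of the 10 members, not Srm and Azin1, in 9 windows, and 1 held it, a promoter of Sms. In transcript models of Srm, the member with the largest change after stimulation, 2 motifs lay with their starts 42 bases apart at the beginning of a retained-intron model (Srm-203), a search made after the values were known. The windows are shown with the motif in capitals; that of Sms lies at chrX:157492451-157492510 on the minus strand with the motif 196 bases before the start, and that of Srm lies at chr4:148591918-148591977 on the plus strand, in intron 1 of Srm-201, beginning 415 bases after its start.
Sms: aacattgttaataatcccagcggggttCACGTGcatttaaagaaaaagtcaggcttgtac
Srm: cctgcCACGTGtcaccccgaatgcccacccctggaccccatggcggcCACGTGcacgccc
Srm-203 held 3 such motifs in 841 bases, the last of them in an exon of Srm-201. A coding transcript with CACGTG was found for Srm and Smox, as for 36.1% of 21877 genes. Of 3180 retained-intron models of 741 to 941 bases, 12.7% held 1 or more and 0.126% held 3 or more. Both the length range and the count of 3 were set from Srm-203 itself, and base composition was not matched. These shares therefore cannot show how unusual that model is. The GC box GGGCGG, searched on both strands and also added later, was in promoters of 6 of the 8 matched members (Odc1, Amd1, Sms, Smox, Sat1 and Oaz2), and in 63.2% of the promoters of genes averaging at least 1 FPKM. TATAAA, also searched on both strands and added later, was in the promoter of Oaz1 and in 6.71% of the promoters of such genes. The strand of the match was not recorded. A match describes the letters only and shows no binding.

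Srm, which makes spermidine, stood apart from the other members. It stood at 6.51, 173 and 100.1 FPKM at 0, 6 and 48 h in the libraries labelled Zak-deficient, and at 6.77, 155 and 104 FPKM in WT (chromosome 4, 148591513 to 148594619, GRCm38.p6). Both genotypes thus had low values at rest, the highest at 6 h and intermediate ones at 48 h. Against 0 h, Srm was 23.1-fold higher at 6 h in the library labelled Zak-deficient and 20.1-fold higher in WT. Counted from the largest increase among 10347 genes, it had rank 18 under the label Zak-deficient and rank 17 in WT. At 48 h the fold was 13.5 in both, with rank 121 under the label Zak-deficient and rank 133 in WT.

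The other synthesis genes had smaller changes. Odc1, the first enzyme of the pathway, was already abundant at rest. It stood at 219, 325 and 173 FPKM at 0, 6 and 48 h in the libraries labelled Zak-deficient, against 181, 325 and 186 FPKM in WT (chromosome 12, 17544808 to 17551502). The 6 h libraries had the highest level in both genotypes, and neither passed 2-fold: 1.48-fold higher than at 0 h under the label Zak-deficient and 1.79-fold in WT. At 48 h Odc1 was 1.27-fold lower than at 0 h in the library labelled Zak-deficient and 1.03-fold higher in WT. The WT value lies so near 0 that its sign turned with the libraries scaled to a common sum (log2 change -0.06) or to the upper quartile (-0.02).

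Amd1, which makes the aminopropyl donor by decarboxylating S-adenosylmethionine, had its highest level at 48 h. It stood at 21.95, 37.2 and 51.1 FPKM at 0, 6 and 48 h in the libraries labelled Zak-deficient, and at 23.7, 43.4 and 54.5 FPKM in WT (chromosome 10, 40287458 to 40302188). The level was higher at each later time in both genotypes. Against 0 h it was 1.67-fold higher at 6 h and 2.27-fold at 48 h under the label Zak-deficient, and 1.79-fold and 2.24-fold in WT. Amd1 has a near-identical copy, Amd2, and 7 named pseudogenes in RefSeq, so its value is uncertain. Summed with Amd2, it was 2.35-fold higher at 48 h under the label Zak-deficient and 2.24-fold in WT.

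Sms, which makes spermine, was among the lowest members. It stood at 5.58, 11.6 and 14.7 FPKM at 0, 6 and 48 h in the libraries labelled Zak-deficient, against 7.08, 15.3 and 16.35 FPKM in WT (chromosome X, 157443851 to 157492287). All stimulated libraries were above both resting ones. At 6 h it was 1.92-fold higher than at rest under the label Zak-deficient and 2.01-fold higher in WT, just on either side of the 2-fold rule; at 48 h it was 2.39-fold and 2.15-fold higher. The WT value at 6 h fell short of 2-fold under each of the 3 scalings (log2 change 0.93 to 0.99), and both 48 h values did with a pseudocount of 5 FPKM (0.90 under the label Zak-deficient and 0.82 in WT). The pseudogene Sms-ps was listed above Sms itself, at 23.4, 28.7 and 53.0 FPKM in the libraries labelled Zak-deficient and 25.4, 36.1 and 64.2 FPKM in WT, so reads may have been divided between the copies and the value of Sms is uncertain. With both summed, the 6 h change was 1.38-fold under the label Zak-deficient and 1.57-fold in WT, and the 48 h change 2.30-fold and 2.44-fold.

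**Figure D1:**
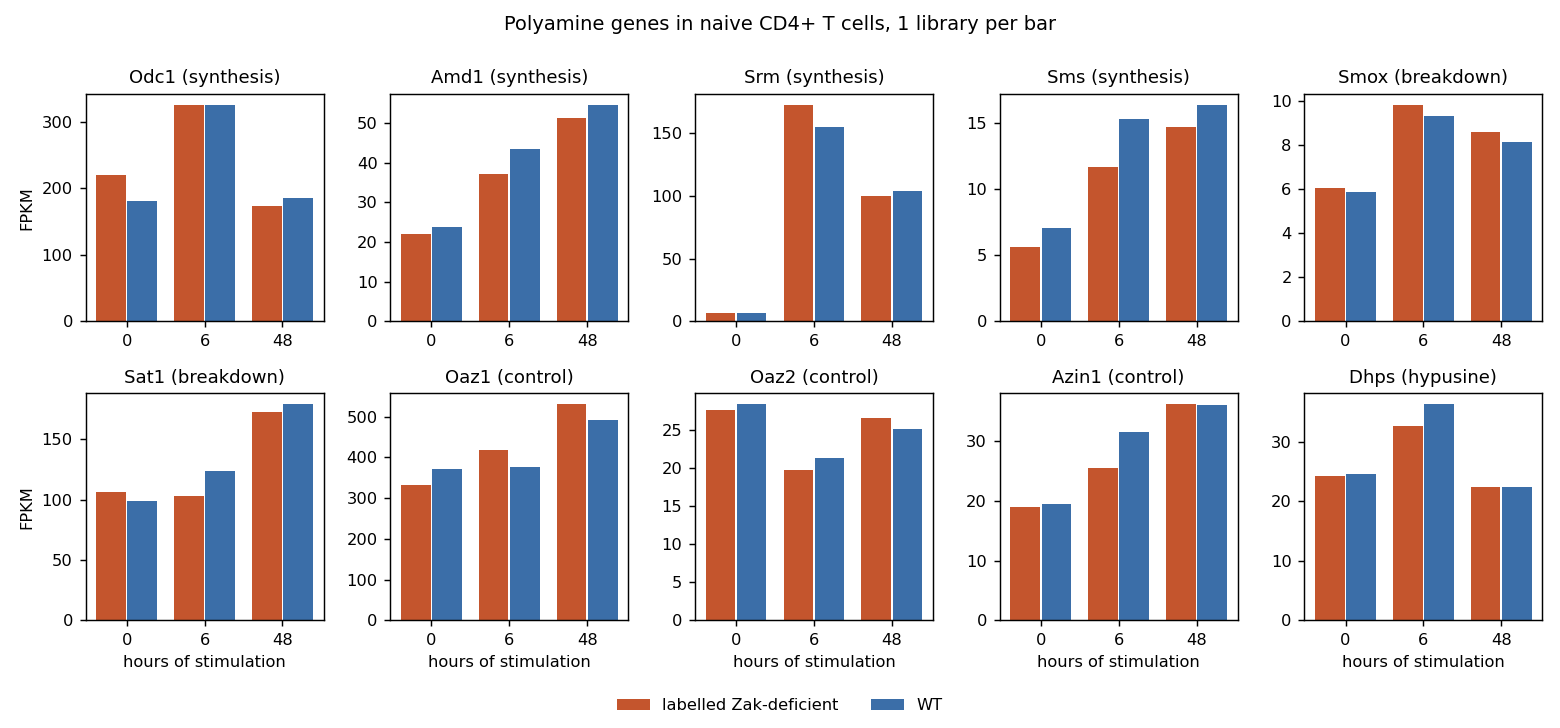
FPKM of the 10 members (vertical axes, each starting at 0 with its own scale) at 0, 6 and 48 h of stimulation; each bar is 1 library, with those labelled Zak-deficient in orange left of WT in blue. Srm stands above 150 FPKM at 6 h against less than 7 at rest in both genotypes, while the highest and lowest bars of each other member differ by less than 3-fold.

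Of the genes that break polyamines down, Sat1 was abundant and Smox was not. Sat1 acetylates spermidine and spermine, which marks them for oxidation or export. It stood at 107, 103 and 173 FPKM at 0, 6 and 48 h in the libraries labelled Zak-deficient, and at 98.6, 124 and 179 FPKM in WT (chromosome X, 155213126 to 155216449). The 48 h libraries were the highest of each genotype, 1.62-fold above rest under the label Zak-deficient and 1.81-fold in WT. At 6 h Sat1 was 1.03-fold lower than at rest under the label Zak-deficient and 1.25-fold higher in WT; with median ratio scaling the first of these turned sign (log2 change 0.02).

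Smox, the oxidase that turns spermine back into spermidine, was measured at single-digit levels. It stood at 6.04, 9.80 and 8.56 FPKM at 0, 6 and 48 h in the libraries labelled Zak-deficient, against 5.85, 9.30 and 8.14 FPKM in WT (chromosome 2, 131491858 to 131525183). The 6 h level was the highest in both genotypes, with log2 changes from rest of 0.62 under the label Zak-deficient and 0.59 in WT. At 48 h it was 1.36-fold above rest under the label Zak-deficient and 1.33-fold in WT. Paox, the oxidase of acetylated polyamines, was not a member; it stood at 5.26, 4.62 and 10.3 FPKM in the libraries labelled Zak-deficient and at 5.52, 4.95 and 9.84 in WT.

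Among the regulators of ornithine decarboxylase, the 2 antizyme genes did not move together. Oaz1 had the highest level of all members in each of the 6 libraries. It stood at 332, 417 and 530.5 FPKM at 0, 6 and 48 h in the libraries labelled Zak-deficient, and at 372, 376 and 492 FPKM in WT (chromosome 10, 80826656 to 80829290). The 48 h level was 1.60-fold above rest under the label Zak-deficient and 1.32-fold in WT. At 6 h the change was 1.26-fold and 1.01-fold, and the WT value turned sign under each of the 3 scalings tried (lowest log2 change -0.08).

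Oaz2 was lower after stimulation, within a narrow range. It stood at 27.5, 19.7 and 26.5 FPKM at 0, 6 and 48 h in the libraries labelled Zak-deficient, against 28.3, 21.2 and 25.05 FPKM in WT (chromosome 9, 65676548 to 65690300). It was 1.38-fold lower at 6 h than at rest under the label Zak-deficient and 1.32-fold lower in WT, and 1.04-fold and 1.13-fold lower at 48 h. Both antizyme genes have a named pseudogene in RefSeq, and their values are uncertain for that reason. The testis antizyme gene Oaz3 was at or below 0.29 FPKM in all libraries.

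Azin1, the catalytically inactive relative of ornithine decarboxylase that binds antizyme, was higher at both later times. It stood at 18.9, 25.4 and 36.1 FPKM at 0, 6 and 48 h in the libraries labelled Zak-deficient, and at 19.5, 31.5 and 36.05 FPKM in WT (chromosome 15, 38487430 to 38519294). At 48 h it was 1.86-fold above rest under the label Zak-deficient and 1.81-fold in WT, short of 2-fold in both.

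Dhps, which attaches part of spermidine to eIF5A, followed the shape of Odc1. It stood at 24.2, 32.7 and 22.5 FPKM at 0, 6 and 48 h in the libraries labelled Zak-deficient, against 24.7, 36.3 and 22.35 FPKM in WT (chromosome 8, 85071486 to 85075162). It was 1.34-fold higher at 6 h under the label Zak-deficient and 1.45-fold in WT, and 1.07-fold and 1.10-fold lower at 48 h. Its substrate gene Eif5a was much more abundant and changed more. Eif5a stood at 172, 895 and 912 FPKM at 0, 6 and 48 h in the libraries labelled Zak-deficient and at 179, 902 and 1027 FPKM in WT. That is 5.18-fold above rest at 6 h and 5.28-fold at 48 h under the label Zak-deficient, and 5.03-fold and 5.72-fold in WT. Dohh, which completes the modification, was 2.05-fold higher at 6 h under the label Zak-deficient and 1.35-fold higher in WT. The related Eif5a2 lay between 2.19 and 3.07 FPKM throughout.

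By the size rule, 1 of 10 members was at least 2-fold higher at 6 h in the library labelled Zak-deficient (Srm), where 9.08% of all genes were, and 2 of 10 in WT (Srm and Sms), where 8.94% were. At 48 h the count was 3 of 10 in each genotype (Amd1, Srm and Sms), against 18.5% of all genes under the label Zak-deficient and 17.8% in WT. No member was 2-fold lower at either time in these libraries; 1.52% and 1.39% of all genes were at 6 h, and 12% and 12.3% at 48 h, under the label Zak-deficient and in WT. Either way, 10.6% of all genes passed 2-fold at 6 h and 30.5% at 48 h under the label Zak-deficient, and 10.3% and 30.1% in WT. With 10 members, these counts do not set the members apart from other genes. The median log2 change of the 10 members was 0.49 at 6 h and 0.68 at 48 h under the label Zak-deficient, and 0.63 at both times in WT. Over all 10347 genes the medians were -0.08 at 6 h and 0.06 at 48 h under the label Zak-deficient, and -0.06 and 0.00 in WT. Scaling to a common sum moved the change of the median gene by -0.13 at 48 h under the label Zak-deficient, and the other scalings moved these 4 medians by less than 0.1. Of the members, 8 were higher in both genotypes at 6 h, Oaz2 was lower in both and Sat1 differed in sign. At 48 h 7 were higher in both, Oaz2 and Dhps were lower in both and Odc1 differed in sign. The share of all genes with 1 direction in both genotypes was not counted, so these counts do not set the members apart.

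**Figure D2:**
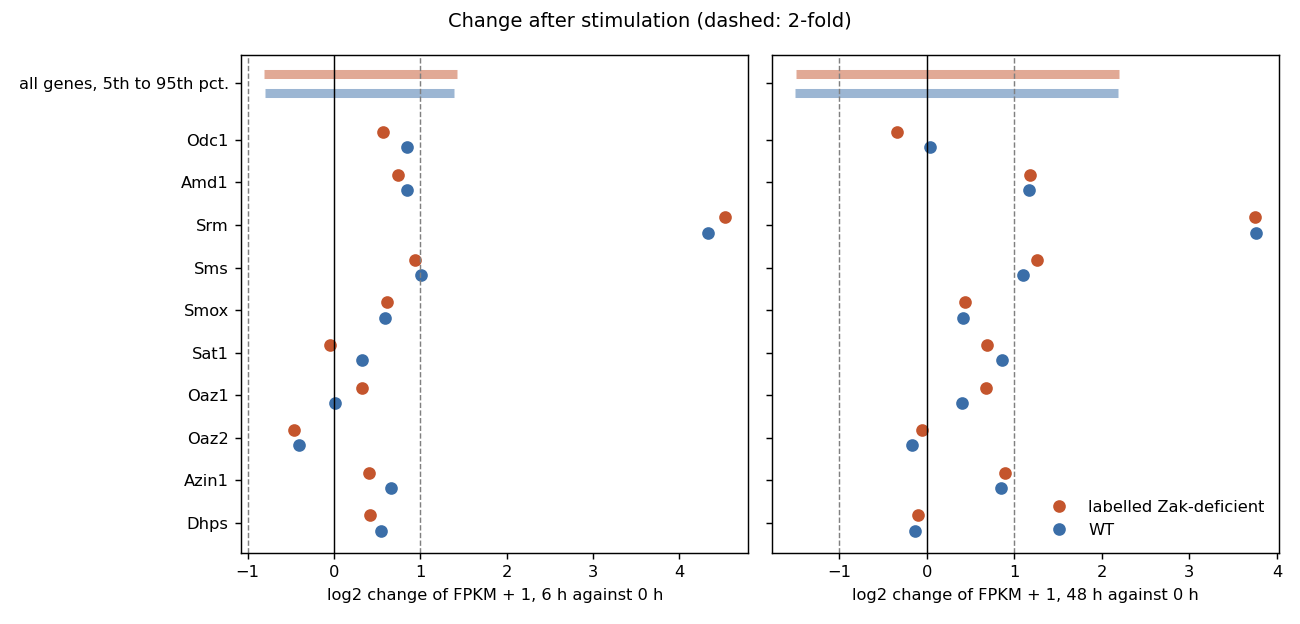
Log2 change of FPKM + 1 against the own 0 h library (horizontal axes) at 6 h (left) and 48 h (right) for each member, with the library labelled Zak-deficient in orange above WT in blue; bars at the top span the 5th to 95th percentile of 10347 genes and dashed lines mark 2-fold. Srm lies at 4.53 and 4.33 at 6 h, beyond the bars, and the other members lie between -0.46 and 1.26 at both times.

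Some reference genes were as far from rest as Amd1 and Sms at 48 h. Of 10 reference and proteasome genes, 5 passed 2-fold upwards at 48 h in both genotypes, such as Actb (2.43-fold under the label Zak-deficient, 2.31-fold in WT) Ppia (2.45-fold and 2.51-fold) and Hprt (3.15-fold and 3.11-fold). At 6 h 0 of 10 did so under the label Zak-deficient and 1 in WT, and at 48 h 1 was lower in WT. Of all genes, 9.08% and 8.94% were higher at 6 h, under the label Zak-deficient and in WT, and 18.5% and 17.8% at 48 h. In WT 12.3% were lower at 48 h. Psmd14, a subunit of the proteasome that degrades ornithine decarboxylase, was 2.54-fold and 2.45-fold higher at 48 h. Other reference genes changed less at 48 h: Tbp was 1.25-fold and 1.22-fold higher, Sdha 1.14-fold and 1.12-fold, and Ywhaz 1.20-fold in both. B2m was 1.93-fold lower under the label Zak-deficient and 2.08-fold lower in WT. Changes near 2-fold at 48 h are therefore of the size seen in some genes often used as references and not in others.

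Between 6 and 48 h, no member passed 2-fold, where 10.8% of all genes were higher and 6.55% lower under the label Zak-deficient, and 9.32% higher and 6.15% lower in WT. Either way this was 17.4% of all genes under the label Zak-deficient and 15.5% in WT. In both genotypes Odc1, Srm, Smox and Dhps were lower at 48 h than at 6 h and the other 6 were higher. Here too the share of all genes with 1 direction in both was not counted. Odc1 was 1.87-fold lower under the label Zak-deficient and 1.74-fold lower in WT; scaled to a common sum or by median ratio, its change under the label Zak-deficient passed 2-fold (log2 change -1.01 and -1.06), where these scalings moved the median gene by -0.10 and -0.14. Srm was 1.72-fold and 1.49-fold lower, and Dhps 1.44-fold and 1.60-fold lower.

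Ratios within a library do not depend on scaling between libraries. The antizyme transcripts (Oaz1 plus Oaz2) were set against those of the proteins that antizyme binds (Odc1 plus Azin1). This gave 1.51, 1.25 and 2.66 at 0, 6 and 48 h in the libraries labelled Zak-deficient, and 2.0, 1.11 and 2.33 in WT. The ratio was lowest at 6 h and highest at 48 h in both genotypes. Odc1 over Azin1 was 11.6, 12.8 and 4.79 in the libraries labelled Zak-deficient and 9.25, 10.3 and 5.16 in WT, lowest at 48 h in both. Srm over Sms was 1.17, 14.8 and 6.80 in the libraries labelled Zak-deficient and 0.956, 10.2 and 6.37 in WT. The transcripts of the 2 synthases were thus at like levels at rest only, with the reservation on Sms above. Oaz1 over Oaz2 was 12.1, 21.2 and 20.0 in the libraries labelled Zak-deficient and 13.1, 17.7 and 19.7 in WT. Eif5a over Dhps was 7.10, 27.3 and 40.6 in the libraries labelled Zak-deficient and 7.24, 24.8 and 45.9 in WT.

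**Figure D3:**
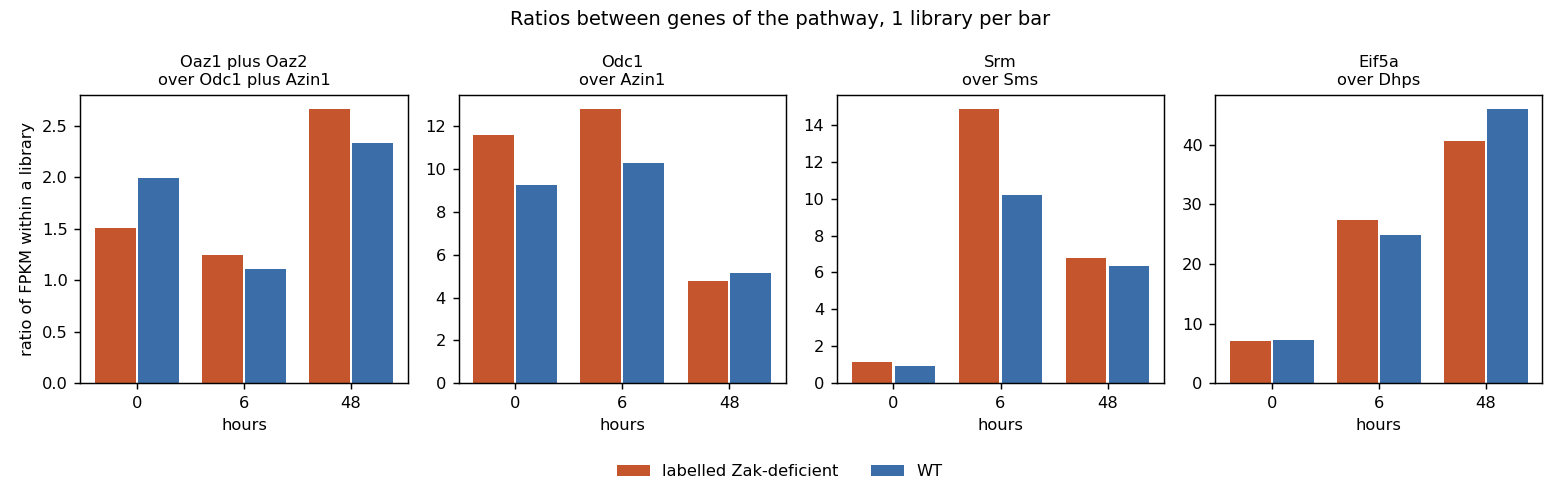
Ratio of FPKM values within a library (vertical axes, from 0) at 0, 6 and 48 h for 4 pairs of genes or sums; each bar is 1 library, with those labelled Zak-deficient in orange left of WT in blue. The ratio of antizymes to the genes of the proteins they bind is lowest at 6 h (1.25 and 1.11) and that of Srm to Sms is highest there (14.8 and 10.2).

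By level, Oaz1 came first in every library and Odc1 second, save that Sat1 had the same value as Odc1 in the 48 h library labelled Zak-deficient. Srm lay below Azin1, Amd1 and Dhps at rest and above them at 6 and 48 h in both genotypes. Together the 10 genes summed to 769, 1155 and 1136 FPKM at 0, 6 and 48 h in the libraries labelled Zak-deficient and to 767, 1137 and 1124 in WT. Over the 6 libraries the profiles of Amd1 and Sms were the most alike among members (distance 0.28 between centred log2 profiles), followed by Amd1 with Azin1 (0.34) and Odc1 with Dhps (0.38). The farthest were Srm and Oaz2 (5.14).

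Among 8112 other genes averaging at least 5 FPKM, the profiles nearest to Odc1 were those of Slc35b1 (distance 0.10), Colgalt1 (0.16) and Prkch (0.21). Nearest to Sat1 were Oxnad1, Sfr1 and Eef1akmt2 (0.07 to 0.08), and nearest to Smox were Ube2g2, Exosc5 and Thoc5 (0.08 to 0.10). The distances rest on the same 6 libraries for all genes.

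Between the genotypes no member reached 2-fold at any time, where 0.271% of all genes did at 0 h, 0.251% at 6 h and 2.23% at 48 h. At 0 h 0.222% of all genes were higher under the label Zak-deficient and 0.0483% lower, at 6 h 0.116% were higher and 0.135% lower, and at 48 h 1.8% were higher and 0.435% lower. At 0 h the member with the largest difference was Sms, 1.23-fold lower under the label Zak-deficient, and 6.88% of all genes differed as much or more. Odc1 was 1.21-fold higher (7.79% of genes as far or farther), and the other 8 members differed by between 1.02-fold and 1.12-fold. At 6 h Sms was 1.29-fold lower (8.32% of genes as far), Azin1 1.23-fold lower (15%), Sat1 1.20-fold lower and Amd1 1.16-fold lower, while Srm and Oaz1 were each 1.11-fold higher. The other members differed by at most 1.11-fold at 6 h, Odc1 with a log2 difference of 0.00. At 48 h the largest difference was 1.10-fold, for Sms, which was lower. The median size of the difference over the members was 1.06-fold, 1.11-fold and 1.05-fold at 0, 6 and 48 h, and over all genes 1.06-fold, 1.10-fold and 1.06-fold. The members thus differed between the labels about as much as the median gene.

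Smox was higher under the label Zak-deficient at all 3 times, as were 11.1% of all genes, and Amd1 and Sms were lower at all 3 times, as were 16.4%. With 3 pairs of libraries a two-sided exact sign-flip test cannot give a p below 0.25. Smox turned sign at 48 h with median ratio scaling (log2 difference -0.09), as did Oaz1 (-0.06), Oaz2 (-0.09), Azin1 (-0.16) and Dhps (-0.16), where this scaling moved the median gene by -0.16. The sum of Amd1 and Amd2 was 55.2 FPKM under the label Zak-deficient and 55.0 in WT at 48 h, so the sign for Amd1 did not hold there; Amd2 stood at 4.08 FPKM in the library labelled Zak-deficient and 0.52 in WT. Sms and Sms-ps summed remained lower at all 3 times (log2 differences -0.16, -0.34 and -0.25).

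The difference of the responses, that of the library labelled Zak-deficient minus that of WT, was largest at 6 h for Sat1 (log2 -0.37) and at 48 h for Odc1 (-0.38). For comparison, 13% and 9.97% of all genes differed as far or farther. Oaz1 had differences of 0.31 at 6 h and 0.27 at 48 h. They share their 0 h libraries with the comparison at rest, where Odc1 was higher and Oaz1 1.12-fold lower under the label Zak-deficient.

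**Figure D4:**
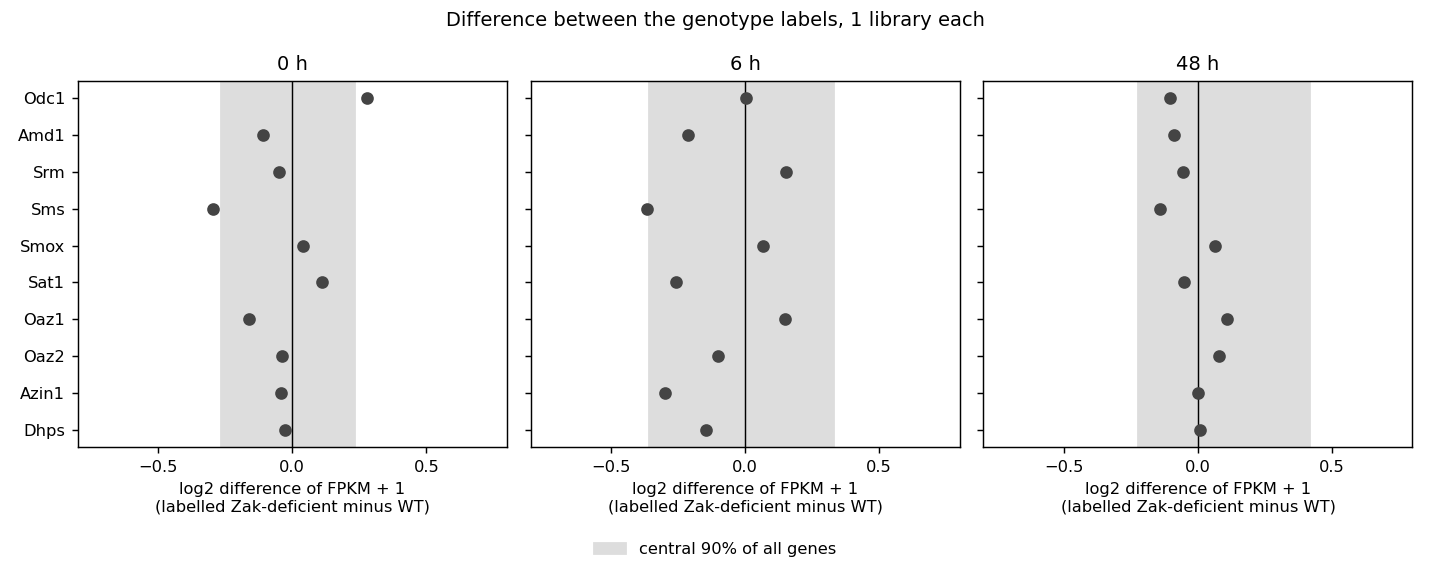
Log2 difference of FPKM + 1 between the library labelled Zak-deficient and WT (horizontal axes, positive when higher under that label) for each member at 0, 6 and 48 h; grey bands hold the central 90% of 10347 genes. Odc1 (0.28) and Sms (-0.30) lie outside the band at 0 h, Sms (-0.37) lies just outside it at 6 h, and all members lie inside it at 48 h.

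The 48 h comparison was also counted apart for genes with and without sequences shared with many genes. Among genes that carry a 24-base sequence found in transcripts of 50 or more genes, 3.14% were 2-fold or more higher under the label Zak-deficient. Among genes without one 0.516% were. The shares 2-fold or more lower went the other way, 0.102% with such a sequence and 0.707% without. Level and length of the genes were not matched. Such a sequence was carried by 4 of the 10 members (Sms, Smox, Sat1 and Azin1) and by 48.3% of all genes matched. At 48 h the log2 differences of these 4 lay between -0.14 and 0.06; the part of shared sequence in their values was not tested.

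The list of genes around arginine and ornithine, from which putrescine is made, held several large changes. Of 17 listed genes 16 were in the table and 9 averaged at least 1 FPKM. Of these 9, 4 passed 2-fold upwards at 6 h and at 48 h in both genotypes and 0 were lower. Among all genes 9.08% and 18.5% were higher at 6 and 48 h under the label Zak-deficient, and 8.94% and 17.8% in WT. Lower were 1.52% and 12% under the label Zak-deficient, and 1.39% and 12.3% in WT. The 4 were the arginine transporter gene Slc7a1, Aldh18a1 and Pycr1 of the branch from glutamate to proline, and Slc25a15, the mitochondrial ornithine carrier gene. Slc7a1 stood at 7.19, 71.0 and 28.1 FPKM at 0, 6 and 48 h in the libraries labelled Zak-deficient and at 6.61, 58.4 and 32.1 in WT. Aldh18a1 stood at 9.14, 51.7 and 35.3 FPKM in the libraries labelled Zak-deficient and at 8.98, 48.9 and 38.8 in WT. Pycr1 stood at 1.22, 14.0 and 6.75 FPKM in the libraries labelled Zak-deficient and at 0.90, 16.6 and 4.24 in WT. Slc25a15 was 2.28-fold higher at 6 h under the label Zak-deficient and 2.36-fold higher in WT. Not all listed genes rose at 6 h: Oat was 1.28-fold and 1.25-fold lower, and Ass1 1.59-fold and 1.37-fold lower. By 48 h Oat was 1.37-fold above rest in both genotypes, and Ass1 1.87-fold and 1.88-fold. The median log2 change of the 9 genes was 0.85 at 6 h under the label Zak-deficient and 0.74 in WT. Both medians are the values of Prodh. In the libraries labelled Zak-deficient it stood at 0.85, 2.33 and 0.77 FPKM at 0, 6 and 48 h. In WT it stood at 0.65, 1.75 and 0.90. Prodh averaged at least 1 FPKM only through its 6 h libraries, so these medians do not describe a 6 h change of the list. The arginase genes, whose product is ornithine, were low, with Arg1 at or below 0.89 FPKM and Arg2 at or below 0.27 in all libraries.

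Methionine and S-adenosylmethionine genes, which supply the substrate of Amd1 and recover the methylthioadenosine that Srm and Sms release, were also higher in part. Of 19 listed genes 16 averaged at least 1 FPKM. At 6 h 4 passed 2-fold upwards in each genotype and 0 lower. By 48 h 6 were higher in each, and 1 was lower under the label Zak-deficient and 0 in WT. The lower gene was Bhmt, which averaged 1.08 FPKM. It stood at 1.30 FPKM at 0 h and 0.15 at 48 h under the label Zak-deficient, exactly at the 2-fold rule (log2 change -1.0). Shares of all genes higher were 9.08% and 8.94% at 6 h, under the label Zak-deficient and in WT, and 18.5% and 17.8% at 48 h. Shares lower were 1.52% and 1.39%, and 12% and 12.3%. Mat2a, which makes S-adenosylmethionine, stood at 47.5, 165 and 121 FPKM at 0, 6 and 48 h in the libraries labelled Zak-deficient and at 54.8, 179 and 133 in WT. Mtap, which cleaves methylthioadenosine, stood at 11.75, 32.3 and 35.9 FPKM in the libraries labelled Zak-deficient and at 9.84, 38.3 and 39.4 in WT. Slc7a5, a transporter of large neutral amino acids including methionine, was 26.6-fold higher at 6 h under the label Zak-deficient and 23.0-fold higher in WT. Ahcy, which clears S-adenosylhomocysteine, was 3.72-fold higher at 48 h under the label Zak-deficient and 3.11-fold higher in WT.

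Other polyamine enzymes and transporters were mostly low: of 16 listed genes, all in the table, 6 averaged at least 1 FPKM. At 6 h 1 of the 6 was at least 2-fold higher in each genotype, Slc3a2, the partner chain of several amino acid transporters. It stood at 72.6, 236 and 169 FPKM at 0, 6 and 48 h in the libraries labelled Zak-deficient and at 59.0, 221 and 94.9 in WT. At 48 h 2 were higher under the label Zak-deficient (Slc3a2 and Amd2) and 0 in WT. Amd2 stood at 1.01, 1.61 and 4.08 FPKM in the libraries labelled Zak-deficient and at 0.33, 0.73 and 0.52 in WT. It averaged at least 1 FPKM only through the 48 h library labelled Zak-deficient. Its place in that count and its difference between the labels rest on that 1 low value. All genes gave shares higher of 9.08% and 8.94% at 6 h, under the label Zak-deficient and in WT, and 18.5% and 17.8% at 48 h. Atp13a2, a lysosomal polyamine transporter gene, was 1.51-fold lower at 48 h under the label Zak-deficient and 1.53-fold lower in WT. Between the labels at 48 h, Amd2 was 3.34-fold higher and Slc18b1, a vesicular polyamine transporter gene chosen after its values were seen, stood at 13.35 FPKM in the library labelled Zak-deficient and 2.25 in WT. Slc3a2 carries 145 of the 24-base sequences shared with many genes, Slc18b1 carries 31 and Amd2 carries 0; their part in these values was not tested.

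Myc, a known activator of Odc1 and Srm transcription, stood at 8.75, 185 and 87.0 FPKM at 0, 6 and 48 h in the libraries labelled Zak-deficient and at 11.5, 166 and 98.8 in WT. Like Srm, Odc1, Smox and Dhps, it was highest at 6 h in both genotypes. The share of all genes highest at 6 h was not counted, and a link between Myc and these genes was not tested. Of the listed Myc network of 11 genes, 9 averaged at least 1 FPKM. At 6 h 1 passed 2-fold upwards in each genotype, and 1 was lower under the label Zak-deficient and 0 in WT. By 48 h 2 were higher in each, and 3 were lower under the label Zak-deficient and 1 in WT. Shares of all genes higher were 9.08% and 8.94% at 6 h, under the label Zak-deficient and in WT, and 18.5% and 17.8% at 48 h. Shares lower were 1.52% and 1.39%, and 12% and 12.3%. Mxd3, 1 of the 2 higher at 48 h, stood at 0.36, 0.32 and 26.8 FPKM in the libraries labelled Zak-deficient. In WT it stood at 0.25, 0.37 and 25.6 FPKM. It averaged at least 1 FPKM only through its 48 h libraries, so the filter favoured its count there. Its 48 h change, 20.5-fold under the label Zak-deficient and 21.3-fold in WT, depends on the pseudocount. Mnt, a repressor that competes for Max, was 2.51-fold and 2.64-fold lower at 48 h. Mxd4 was 2.23-fold and 1.88-fold lower.

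**Figure D5:**
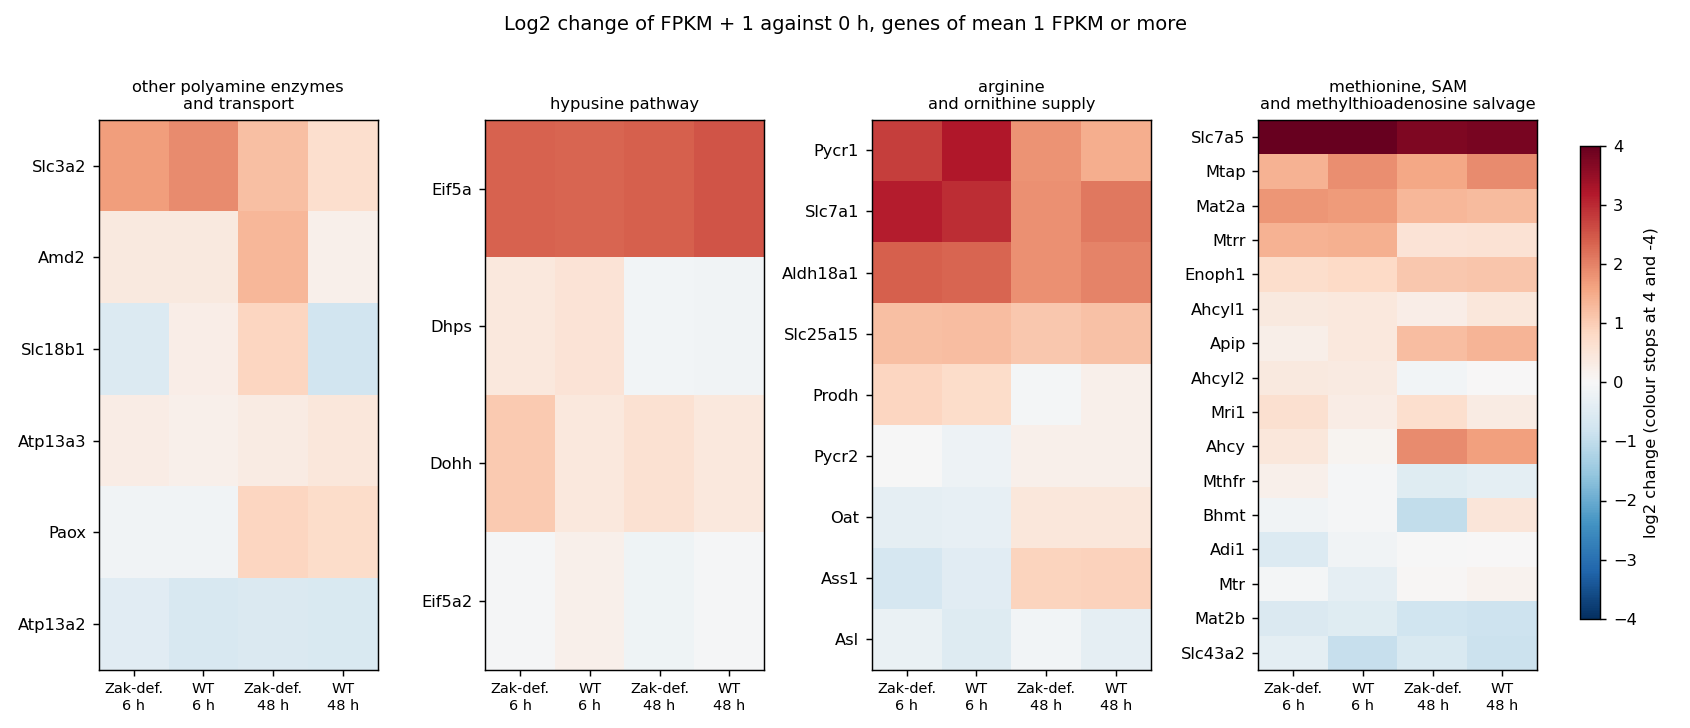
Log2 change of FPKM + 1 against 0 h (colour, red higher and blue lower, ending at 4 and -4) for genes of 4 lists averaging at least 1 FPKM; columns give the library labelled Zak-deficient and WT at 6 h and then at 48 h. Slc7a1, Aldh18a1, Pycr1, Eif5a and Slc7a5 are red in all 4 columns, while most other rows are pale.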

How the data were processed

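The authors deposited a table of FPKM with 1 value for each gene in each library. Bowtie, RSEM and the build mm10 are named per the submitters' processing notes; their versions: not given in the sources used here. Of 18446 genes, 18326 had a symbol through RefSeq (GRCm38.p6) and 120 had none. No column was left out. With 1 library per group, comparisons are differences of log2(FPKM+1) between 2 libraries, without rescaling and without a test; background shares use 10347 genes averaging at least 1 FPKM. Members and lists were chosen with earlier results of these data known. Named genes were all members and, per list, up to 4 of mean 1 FPKM or more with the largest log2 change at 6 or 48 h (mean of both genotypes), besides nearest profiles, Map3k20, Myc, Cd69, Il2ra, Mki67 and Eif5a; others were named for their role or after their values were seen. Alternatives changed the pseudocount (0.1 or 5), scaling, size rule (1.5-fold or 4-fold), filter and members counted. Promoters came from RefSeq, transcripts from GENCODE M21. The calculation was tested on simulated data. Python 3.11.15, numpy 2.4.6, pandas 2.3.3 and matplotlib 3.10.9 were used.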

Additional observations from a re-analysis of the deposited data

Results flagged for a closer look

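Sat1 went opposite ways in the genotypes at 6 h, slightly lower than at rest in the library labelled Zak-deficient and higher in WT, a difference of -0.37 on the log2 scale. Odc1 did so at 48 h, lower under the label Zak-deficient and slightly higher in WT, with a difference of -0.38. With 1 library per group neither difference was tested, and 1 side of each turned sign under a scaling.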

How the results depend on the processing

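No paired analysis by replicate number was possible because each group has 1 library and the labels give no such numbers. The genotypes can be paired by time, in 3 pairs that are different times and not replicates; a fit of genotype with time as a term was not run. Of 468 recomputed member changes under other pseudocounts, scalings or summed copies, 458 stayed on the same side of 2-fold and within 1.5-fold, 10 moved and 0 with a called change reversed. The counts of members past 2-fold moved as follows. At 6 h against 0 h under the label Zak-deficient, 1 became 2 with a pseudocount of 0.1 and 4 at 1.5-fold. In WT, 2 became 6 at 1.5-fold, and 1 at 4-fold, with a pseudocount of 5, under each of the 3 scalings, with Sms and Sms-ps summed, and without members that have a named copy. At 48 h against 0 h, 3 became 6 under the label Zak-deficient and 5 in WT at 1.5-fold, 1 in each at 4-fold and without members that have a named copy, and 2 in each with a pseudocount of 5, which Sms did not pass. At 48 h against 6 h, 0 became 3 under the label Zak-deficient and 2 in WT at 1.5-fold, and 1 under the label Zak-deficient with common sum or median ratio scaling. Srm passed 4-fold at 6 h and 48 h in both genotypes, and no member passed 1.5-fold between the labels. Leaving out Amd1, Odc1 and Oaz1 took the 48 h count to 2 in both genotypes; this set differs from the members with a copy named in RefSeq (Amd1, Sms, Oaz1 and Oaz2), where Odc1 has none. Of the wider lists, other polyamine genes past 2-fold at 48 h under the label Zak-deficient went to 1 among genes averaging at least 5 FPKM. Without a filter, 6.04% of all genes passed 2-fold at 6 h under the label Zak-deficient and 5.91% in WT. Summing copies and leaving out members with a named copy were chosen after seeing the data. The files give no fragment numbers, so counting error could not be set beside the values.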
